A study of Mus musculus with 3 samples.

Results

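The peaks described here are those of Utf1, undifferentiated embryonic cell transcription factor 1, in 3 imprinted domains of the mouse genome. The members were chosen by position only: every listed peak that overlaps the H19-Igf2 domain (chromosome 7, 149740000 to 149870000), the Kcnq1ot1-Cdkn1c domain (chromosome 7, 150380000 to 150660000) or the Dlk1-Meg3 domain (chromosome 12, 110670000 to 110830000), in mm9 and counted from 1. This gave 95 of the 152608 peaks listed for biotin-tagged Utf1 and 0 of the 10506 peaks listed for endogenous Utf1. The domains hold 20, 40 and 35 biotin peaks in the order given, over 570 kb in all.

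All 3 samples of the study are KH2 cells, a mouse embryonic stem cell line kept in standard serum medium with LIF on irradiated mouse fibroblast feeders. Each group has 1 library: a biotin precipitation of tagged Utf1 (the biotin list), a precipitation of endogenous Utf1 (the endogenous list) and a whole-cell extract that was not precipitated, whose values were not analysed here. The labels of both precipitations name the same Utf1 antibody, while streptavidin beads are described for the tagged protein, and they do not say how the tagged protein was expressed. Only tags inside peaks are listed, so library depth is unknown, and these tags sum to 14128799 for biotin and 276084 for endogenous Utf1. With 1 library per group no difference below has a replicate check, and intervals cover counting error only.

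Imprinted genes are expressed from a single parental copy, and the choice is set by DNA methylation at control regions that differs between egg and sperm. At H19-Igf2 a maternally expressed non-coding RNA, H19, and a paternally expressed growth factor gene, Igf2, share enhancers that an insulator between them keeps from Igf2 on the maternal copy. Kcnq1ot1 is a long non-coding RNA transcribed from the paternal copy within the Kcnq1 gene, where it silences neighbours such as Cdkn1c, which encodes an inhibitor of cyclin-dependent kinases. At Dlk1-Meg3 the membrane protein gene Dlk1 is expressed from the paternal copy and the non-coding RNA Meg3 from the maternal copy, and Meg3 is known to be silenced in some cultured stem cell lines. Utf1 itself is bound to chromatin and is made in pluripotent cells. The peak lists do not separate the parental copies, so each value below is for both together.

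The promoters of the genes are shown for their CpG dinucleotides, the bases at which DNA methylation is written. These windows were not chosen as control regions, and no methylation was measured here. RefSeq sequences of GRCm38.p6 were found for 4 of the 6 genes (Igf2, Kcnq1ot1, Dlk1 and Meg3) and not for H19 and Cdkn1c. Each line gives the 250 bases before a start site, 5′ to 3′ on the strand of the gene, with CG in capitals. For Igf2 and Meg3, which have several listed starts, the one with the most CG is shown.
Igf2: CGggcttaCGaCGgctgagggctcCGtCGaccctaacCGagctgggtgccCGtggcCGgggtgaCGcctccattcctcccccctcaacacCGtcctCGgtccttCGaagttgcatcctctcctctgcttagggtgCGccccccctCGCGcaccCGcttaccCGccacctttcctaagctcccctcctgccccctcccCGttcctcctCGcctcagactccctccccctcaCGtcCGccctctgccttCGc
Kcnq1ot1: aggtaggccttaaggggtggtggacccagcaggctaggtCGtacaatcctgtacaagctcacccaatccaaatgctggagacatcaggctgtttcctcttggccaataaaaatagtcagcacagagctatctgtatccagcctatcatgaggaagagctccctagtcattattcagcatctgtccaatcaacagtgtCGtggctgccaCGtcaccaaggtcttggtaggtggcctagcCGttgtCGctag
Dlk1: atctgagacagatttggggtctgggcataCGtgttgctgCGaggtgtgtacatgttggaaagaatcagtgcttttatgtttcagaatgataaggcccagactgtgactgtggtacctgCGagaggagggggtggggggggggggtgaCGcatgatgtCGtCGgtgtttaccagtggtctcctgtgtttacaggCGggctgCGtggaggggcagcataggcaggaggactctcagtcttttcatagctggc
Meg3: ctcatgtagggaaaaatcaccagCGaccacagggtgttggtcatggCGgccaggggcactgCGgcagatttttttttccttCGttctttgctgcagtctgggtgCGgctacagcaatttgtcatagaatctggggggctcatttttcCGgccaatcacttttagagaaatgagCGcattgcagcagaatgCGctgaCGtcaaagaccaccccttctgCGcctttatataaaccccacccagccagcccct
The Igf2 window held 22 CG, and 14.8% of all 32851 listed promoter windows of this length held at least as many. Meg3 held 10 (37.8% of windows), Dlk1 held 8 (43.0%) and Kcnq1ot1 held 5 (55.6%), against a median of 6 over all windows. CG reads the same on both strands. The other listed starts of Igf2 held 10, 6 and 1 CG (37.8, 50.35 and 92.1% of windows), and that of Meg3 held 0. The ranks given for Igf2 and Meg3 are thus those of their richest start, set against single windows. These windows are of another build than the peaks, so no peak was assigned to a promoter, and gene names below stand for whole domains. In the gene order of GRCm38.p6 the 2 genes that name each domain lie on the chromosome given above. In that order the entries Mir675 and Gm33148 come between H19 and Igf2, and 4933417O13Rik between Kcnq1ot1 and Cdkn1c. The entries Gm34081 and Gm34017 come between Dlk1 and Meg3. Such an order does not show whether an entry lies inside a neighbouring gene.

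All 3 domains were richer in biotin peaks than most of their chromosome, Dlk1-Meg3 most clearly. Dlk1-Meg3 held 35 peaks (95% Poisson interval 24.4 to 48.7), or 21.9 per 100 kb (15.2 to 30.4). H19-Igf2 held 20 (12.2 to 30.9), or 15.4 per 100 kb (9.40 to 23.8), and Kcnq1ot1-Cdkn1c held 40 (28.6 to 54.5), or 14.3 per 100 kb (10.2 to 19.5). The intervals of the 3 densities overlap, so their order is not settled by counting error.

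Each domain was set beside windows of its own length, tiled from its borders along the chromosome between the first and last listed peak. The median window held 5 biotin peaks at the length of H19-Igf2 (interquartile range 2 to 14), and 952 of 1148 windows (82.9%) held fewer than the domain. For Kcnq1ot1-Cdkn1c the median window held 11 (4 to 31), and 435 of 532 (81.8%) held fewer. For Dlk1-Meg3 the median window held 5 (2 to 12), and 703 of 737 (95.4%) held fewer, while 32 held more. Windows are parts of 1 library and no replicates, so these are ranks without a test.

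**Figure D1:**
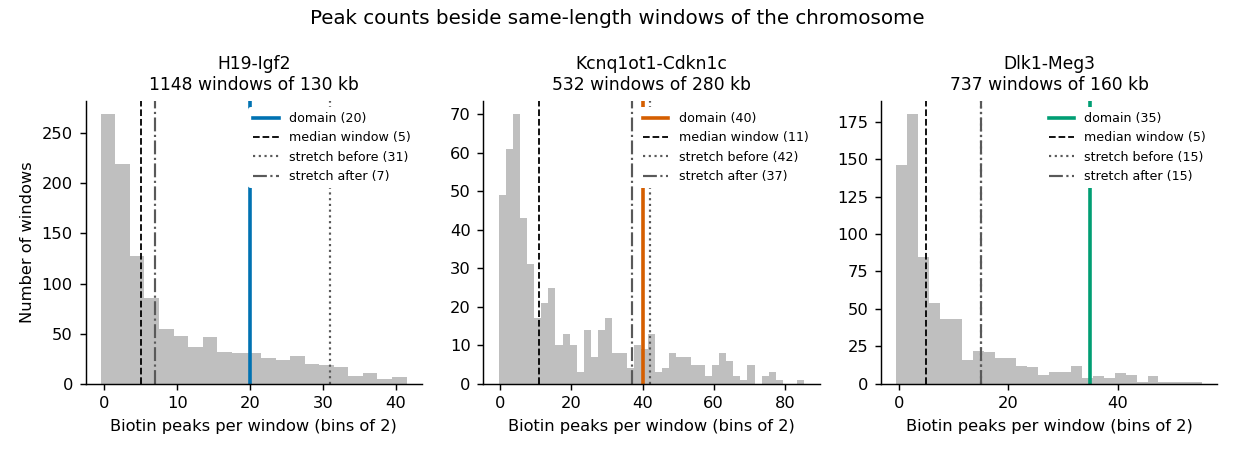
Number of biotin peaks (horizontal axis, bins of 2) in windows of the length of each domain on the same chromosome (grey, number of windows on the vertical axis), with the domain, the median window and the equally long stretches directly before and after it as lines. The domains stand at 20, 40 and 35 peaks against medians of 5, 11 and 5.

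Each domain lies in a region where biotin peaks are dense. The 2 domains of chromosome 7 are 510 kb apart, so their surroundings are largely the same sequence and not separate observations. These surroundings lie mostly before the domains, as listed peaks end 1.85 Mb after Kcnq1ot1-Cdkn1c. Among windows within 10 Mb, the median was 16 for H19-Igf2, 37.5 for Kcnq1ot1-Cdkn1c and 15 for Dlk1-Meg3. There 60 of 97 windows (61.9%) held fewer peaks than H19-Igf2, 24 of 42 (57.1%) fewer than Kcnq1ot1-Cdkn1c and 102 of 126 (81.0%) fewer than Dlk1-Meg3. The 2 domains of chromosome 7 therefore lay near the middle of their region by peak count, and Dlk1-Meg3 in its upper part.

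Directly beside the domains the 3 differed. Dlk1-Meg3 held 35 peaks, and the equally long stretches before and after it held 15 each (8.40 to 24.7), a ratio of 2.33. Tags in peaks were 15.7 per kb in this domain, 6.82 per kb before it and 6.59 per kb after it. H19-Igf2, with 20 peaks, stood between 31 peaks (21.1 to 44.0) before it and 7 (2.81 to 14.4) after it, and its 12.4 tags per kb stood between 18.3 and 2.22. Kcnq1ot1-Cdkn1c, with 40 peaks, was close to both of its neighbours, with 42 (30.3 to 56.8) before and 37 (26.1 to 51.0) after. Its 14.1 tags per kb compare with 18.9 before and 13.7 after. Thus the peak count was above both neighbours at Dlk1-Meg3 alone among the 3 domains. There the intervals of the domain and of its neighbours met only at their ends. These intervals treat peaks as independent, whereas windows of this length on the chromosome held 0 to 54 peaks, with an interquartile range of 2 to 12. Counts thus spread more widely than the intervals allow for, and the intervals do not settle the contrast with the neighbours.

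By tags per kb of domain the order was Dlk1-Meg3, Kcnq1ot1-Cdkn1c and H19-Igf2, with 15.7 (15.1 to 16.3), 14.1 (13.7 to 14.5) and 12.4 (11.8 to 13.0). These rest on 2514, 3946 and 1608 tags, and no peak crossed a domain border. The intervals do not overlap, but they treat tags as independent and say nothing of a second library. Of the windows on the chromosome, 92.0, 85.0 and 82.6% had fewer tags per kb, and the window medians were 2.39, 2.97 and 2.62. Within 10 Mb the shares were 70.6, 71.4 and 63.9%. A comparison with windows of like peak count on the chromosome was added after the values were seen. Of the 50 windows with 28 to 42 peaks, 35 had more tags per kb than Dlk1-Meg3 (median 16.8). Of the 64 with 32 to 48 peaks, 19 had more than Kcnq1ot1-Cdkn1c (median 11.8). Of the 127 with 16 to 24 peaks, 63 had more than H19-Igf2 (median 12.3). Peaks covered 28.5% of Dlk1-Meg3, 22.2% of Kcnq1ot1-Cdkn1c and 22.2% of H19-Igf2, against window medians of 3.10, 4.32 and 4.11%. Per kb of peak, rather than of domain, the tags were 55.1 at Dlk1-Meg3, 63.4 at Kcnq1ot1-Cdkn1c and 55.7 at H19-Igf2. So the higher level of Dlk1-Meg3 per kb of domain went with more covered sequence and not with denser peaks.

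Single peaks in the domains were ordinary for the biotin list in width, and their slightly lower folds were not set apart from it by counting error. Their median width was 1071 bp, their median tag count 50 and their median fold enrichment 3.96, against 1085 bp, 53 tags and 4.14 over the whole list. The fold is the ratio listed by the authors over a background the sources do not describe. By domain the median fold was 3.28 at H19-Igf2, 3.96 at Kcnq1ot1-Cdkn1c and 3.96 at Dlk1-Meg3, against 4.14 on chromosome 7 and on chromosome 12. Of the 95 peaks, 41 stood at or above the median fold of the list, 43.2% (exact Clopper-Pearson 95% interval 33.0 to 53.7), against 53.0% of the whole list. A fold of 8 or more was listed for 6 of the 95, 6.32% (2.35 to 13.2), against 11.8% of the whole list. The members on either side of this limit had folds of 8.79 and 7.93. A width of 3 kb or more was listed for 6 of the 95, 6.32% (2.35 to 13.2), against 5.19% of the whole list. Each of these intervals includes the share of the whole list.

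**Figure D2:**
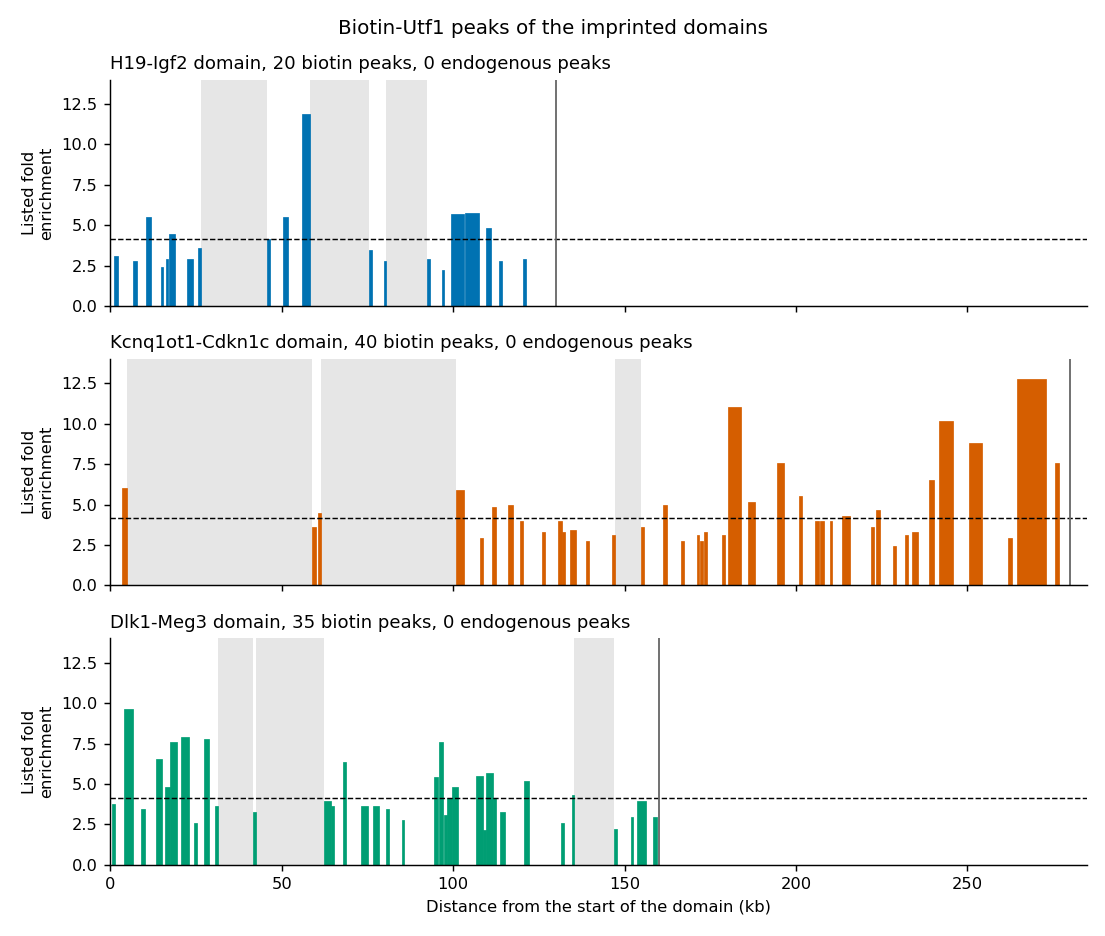
Biotin peaks of each domain drawn at their position and width (horizontal axis, distance from the start of the domain in kb) with the fold enrichment listed by the authors as height. The dashed line is the median fold of the biotin list, 4.14, the grey fields are the 3 longest gaps of each domain and the vertical line is its end; the first 100 kb of Kcnq1ot1-Cdkn1c are nearly empty, and its 4 highest peaks stand between 180.1 and 273 kb.

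The Kcnq1ot1-Cdkn1c domain was uneven from end to end. Its first 140 kb held 13 peaks and its second 140 kb held 27, with 21.0 and 79.0% of the tags. Only 3 peaks lay before position 150480677. The first, at 150383483 to 150384943, had 90 tags and a fold of 6.03, and a pair at 150438876 to 150441593 had 92 tags together and folds of 3.62 and 4.48. The remaining 37 peaks, from 150480677 to 150656660, carried 95.4% of the tags of the domain. The first of these 37, at 150480677 to 150483065, stood out from its neighbours with 245 tags (215 to 278) and a fold of 5.91.

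A pair of gaps separates these groups, the longest of any of the 3 domains. The first ran from 150384944 to 150438875, 53.9 kb, and the second from 150441594 to 150480676, 39.1 kb. The third gap, 150527148 to 150534874, was 7.73 kb. A gap of 53.9 kb was shorter than the median longest gap of windows of this length, 76.3 kb, since most windows held few peaks. Among the 64 windows with 32 to 48 peaks, a comparison added after the values were seen, the median longest gap was 32.7 kb (26.2 to 44.2), and 10 had a longer gap than the domain. The domain was thus in the upper part of windows with a like number of peaks, but not beyond them.

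The strongest peaks of the same domain lay in its second 140 kb. The strongest by fold, at 150644399 to 150653008, was 8610 bp wide with 837 tags (781 to 896) and a fold of 12.76. It carried 21.2% of the tags of the domain, and 225 peaks of the whole list were wider. Its listed 10 times −log10 p was 3100, a value shared by 1488 biotin peaks, so ranks by p do not separate it from those. Next came 150560081 to 150563857, 3777 bp with 384 tags (347 to 424) and a fold of 11.03. Then came 150621766 to 150625770, 4005 bp with 325 tags and a fold of 10.17, and 150630356 to 150634172, 3817 bp with 288 tags and a fold of 8.79. These 4 made up all peaks of the domain with a fold of 8 or more. The fifth, 150574455 to 150576457, had 136 tags and a fold of 7.58, the value also of a 67-tag peak at 150655402 to 150656660. The first, the third and the fourth by fold began 264, 242 and 250.4 kb from the start of the domain, and the other two 180.1 and 194.5 kb from it.

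In the H19-Igf2 domain 1 peak stood apart by fold, and a pair of broad, adjoining peaks by tags and width. The peak with the highest fold, 11.91, lay at 149796035 to 149798411, was 2377 bp wide and had 208 tags (181 to 238). Of the biotin list, 2271 peaks had a higher fold. The next highest fold in the domain was 5.75. The broad pair lay at 149839420 to 149843226 and 149843492 to 149847466, 3807 and 3975 bp wide, with folds of 5.69 and 5.75. Merged, they formed a stretch of 8.05 kb with 566 tags, 35.2% of the tags of the domain. Here tags and fold ordered the peaks differently: the second of the pair had 343 tags (308 to 381), more than the peak with the highest fold. The other named peaks, 149750467 to 149751941 with 81 tags and 149790447 to 149791958 with 89 tags, both had a fold of 5.52.

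Gaps over 10 kb cut the H19-Igf2 domain into 4 groups of peaks. The first group, 149741119 to 149766619, held 8 peaks with a median fold of 3.02 and 25.4% of the tags. After the longest gap, 149766620 to 149785616 (18997 bp), came 3 peaks, the last of them the one with the highest fold, which together carried 21.5% of the tags. The next gap, 149798412 to 149815413 (17002 bp), began at the edge of that peak. A pair of peaks with 58 tags together and folds of 3.45 and 2.76 followed, then a gap from 149820389 to 149832295 (11.9 kb), then 7 peaks with 49.5% of the tags, the broad pair among them. The 3 gaps made up 36.9% of the domain. The longest was shorter than in 992 of 1148 windows, and than in 93 of the 127 windows with 16 to 24 peaks.

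Dlk1-Meg3 had the closest spacing of summits, and its tags rested least on a few peaks, although they were not even along the domain. The median distance between neighbouring summits was 3.25 kb, against 4.74 kb at H19-Igf2 and 4.59 kb at Kcnq1ot1-Cdkn1c. Of its 36 gaps, 11 were under 1 kb, against 3 of 21 and 7 of 41 in the other domains. Spacing and short gaps depend on peak density, which was 21.9 per 100 kb here against 15.4 and 14.3. They were not compared with windows of like count, so they are not a trait apart from density. The peak with the most tags carried 9.51% of the tags of the domain, against 21.3% at H19-Igf2 and 21.2% at Kcnq1ot1-Cdkn1c. The 5 peaks with the most tags carried 34.7%, against 59.8 and 52.7%. Such shares depend on the peak count, 35 here against 20 and 40. The contrast with H19-Igf2 is thus not at equal count. By position, the first 80 kb of Dlk1-Meg3 held 59.0% of the tags and the second 80 kb 41.0%, while the first and second 65 kb of H19-Igf2 held 46.9 and 53.1%.

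**Figure D3:**
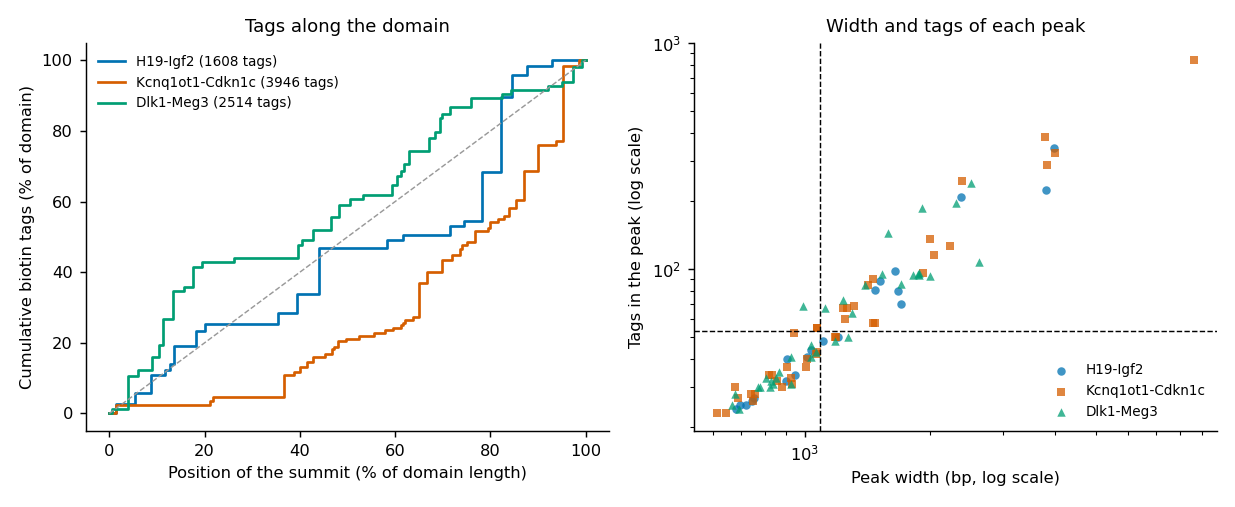
Left, cumulative share of biotin tags against the position of the summit in percent of domain length, with an even spread as the dashed line. Right, tags against width of each of the 95 peaks on log scales, with the medians of the biotin list, 53 tags and 1085 bp, dashed; the Kcnq1ot1-Cdkn1c curve stays low until late, and the peak of 8610 bp and 837 tags stands at the upper right.

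The stronger peaks of Dlk1-Meg3 gathered at its start. A group of 10 peaks from 110670461 to 110701406 held 42.8% of the tags over 30.9 kb, with a median fold of 5.69. Of the 5 peaks with the highest fold, 4 lay in it. The first of these, 110674019 to 110676530, had 239 tags (210 to 271) and a fold of 9.65, and was the only peak of the domain with a fold of 8 or more. The others were 110690685 to 110692992 (195 tags, fold 7.93), 110697223 to 110698807 (144 tags, fold 7.76) and 110687459 to 110689368 (186 tags, fold 7.57). The fifth, at 110766003 to 110767119, lay apart from them and reached a fold of 7.58 with 67 tags (51.9 to 85.1). The widest peak of the domain, 110823714 to 110826334, was 2621 bp wide but had 108 tags and a fold of 3.96, below the median of the list.

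After that group the Dlk1-Meg3 domain was sparse and then filled again. Its longest gap ran from 110712483 to 110732324 (19.8 kb), and a gap of 10.2 kb, from 110701407 to 110711558, stood before a lone peak with 31 tags. From 110732325 to 110805287 there were 20 peaks with 47.6% of the tags and a median fold of 4.05. Within this part 2 stretches of closely spaced peaks stood out: 110764329 to 110771445 with 5 peaks and 317 tags, and 110776849 to 110782494 with 4 peaks and 264 tags. A gap of 11.7 kb, from 110805288 to 110816963, separated the last 4 peaks, none of which reached the median fold of the list. The longest gap was shorter than in 676 of 737 windows, whereas 18 of the 50 windows with 28 to 42 peaks had a longer one.

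**Figure D4:**
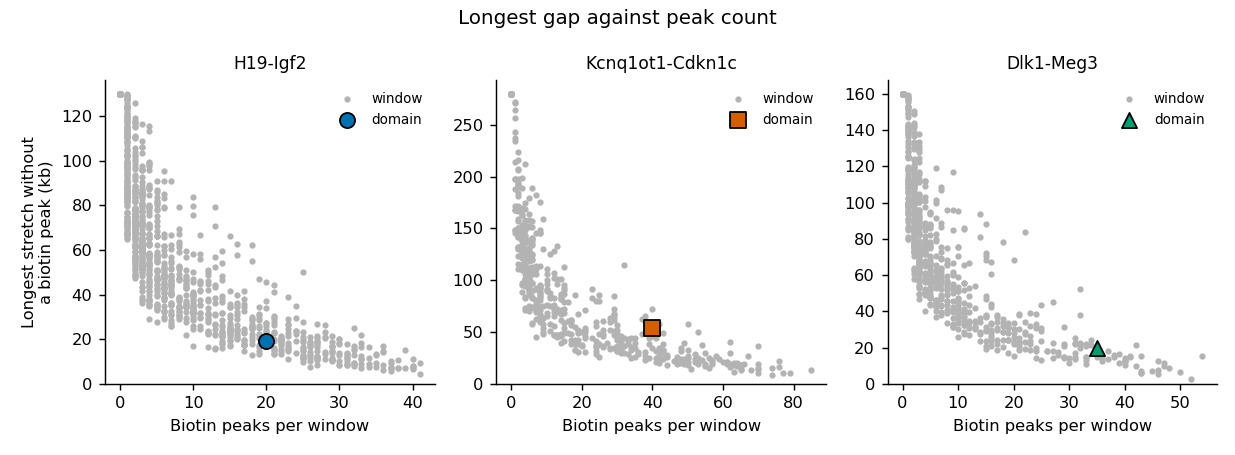
Longest stretch without a biotin peak (kb, vertical axis) against the number of biotin peaks (horizontal axis) in each same-length window (grey) and in the domain (coloured). The longest gap shrinks as the peak count rises, and Kcnq1ot1-Cdkn1c, with 40 peaks and 53.9 kb, lies towards the upper edge of windows with a like count.

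Endogenous Utf1 had no listed peak in any of the 3 domains. For each domain a count of 0 allows up to 3.69 peaks at 95%, that is 2.84 per 100 kb at H19-Igf2, 1.32 at Kcnq1ot1-Cdkn1c and 2.31 at Dlk1-Meg3. Such emptiness was common on these chromosomes: 66.3% of windows of the length of H19-Igf2, 45.3% of those of Kcnq1ot1-Cdkn1c and 60.0% of those of Dlk1-Meg3 held no endogenous peak. Within 10 Mb these shares were 80.4, 64.3 and 69.1%. The mean window held 0.519, 1.11 and 0.567 endogenous peaks. An absence of endogenous Utf1 from the domains was therefore not detectable at this list length.

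No biotin peak of the domains overlapped an endogenous peak by at least 1 bp. That is 0 of 95, against 1.28% of the whole biotin list. It follows from the lack of endogenous peaks in the domains, as no biotin peak crossed a border. It is therefore not a separate result, and no difference from the whole list can be read from it. The nearest endogenous peak to H19-Igf2 lay 64.2 kb after it, at 149934218 to 149934820, with 14 tags at a fold of 2.04. Kcnq1ot1-Cdkn1c had its nearest 413 kb before it, at 149966303 to 149966950, with 16 tags at a fold of 1.12. This domain had none after it on the 1.85 Mb of chromosome 7 up to the last listed biotin peak. For Dlk1-Meg3 the nearest was 99.3 kb before it, at 110569999 to 110570657, with 15 tags at a fold of 1.73, and on the other side 1238 kb away.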

How the data were processed

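Chromatin precipitated for Utf1 from KH2 cells was sequenced, and 1 peak list per precipitation was used, so peaks were listed per library. Per the submitters' processing notes the build is mm9 and the tools include BWA 0.5.7 and R 2.15.2, with no role stated. What caller, settings and control were used was not given in the sources used here. The deposited tag counts are whole numbers per peak, without scaling to depth, as the file headers and values show. Fold enrichment is a deposited linear ratio, the false discovery rate a deposited percent, and peak strength a deposited score of 10 times the −log10 p-value, all per the file headers.

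Peaks overlapping a domain by at least 1 bp were counted. Tags were scaled by the share of a peak inside the domain, gaps were closed at the borders, and peaks at most 1 kb apart were joined into stretches. Windows of the same length were tiled from the domain within the span of listed peaks, leaving out the domain itself. Tag and peak counts carry exact Poisson intervals and shares exact Clopper-Pearson intervals at 95%, and cover counting error only, because tags carry no molecular identifiers and may be copies. No test across samples was possible with 1 library per group. The counting was tested on simulated peaks and against bedtools 2.31.1. Named are the 5 biotin peaks with the highest fold and the widest peak of each domain and its 3 longest gaps; other peaks and gaps named, the limits of fold 8 and 3 kb, the groups split at gaps over 10 kb and the windows of like peak count were chosen after the values were seen. The members and lists were chosen with earlier results of these data known. Alternatives were a summit inside the domain, peaks at or above the median fold, more than 15 tags, other windows and other criteria for sharing. A mm9 annotation was not used here. Software was Python 3.11.15 with scipy 1.17.1, matplotlib 3.10.9, pandas 2.3.3 and numpy 2.4.6.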

Additional observations from a re-analysis of the deposited data

How the results depend on the processing

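The 16 results were recomputed under 39 alternatives. A value was taken as moved where it left the 95% interval of its main value (shares and tags per kb), changed by more than 1.5 times (counts) or changed at all (gaps, which have no interval). By this measure 15 moved. Of the other 24, at least 17 could not have changed. In these the main value was 0 and the setting only removed peaks or overlaps, or no peak crossed a domain border. Keeping only peaks at or above the median fold of their list left 8 biotin peaks at H19-Igf2, 17 at Kcnq1ot1-Cdkn1c and 16 at Dlk1-Meg3, with 9, 10.8 and 10.1 tags per kb and longest gaps of 41.0, 55.6 and 39.0 kb, by construction of the shorter list. With these peaks, 76.7, 77.6 and 93.2% of windows held fewer than the domain. With windows within 10 Mb the shares were 61.9, 57.1 and 81.0%. Without windows that hold no biotin peak the shares were 80.7, 80.6 and 95.0%, and with windows shifted by 50% of their length 83.0, 81.7 and 95.5%. Allowing a distance of 1 kb also left the shared percent at 0. That too could not have changed, since the nearest endogenous peak to any domain lay 64.2 kb away. No paired analysis was possible because each group has 1 library, and no replicate could be left out. Unknown library depth and the short endogenous list limit every statement on absence.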

Other observations

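Between the 2 domains of chromosome 7, from 149870001 to 150379999, there were 57 biotin peaks over 510 kb, or 11.2 per 100 kb, with 12.01 tags per kb. Their median fold was 4.06 and the highest 15.21, above the highest fold of either domain, 11.91 and 12.76. This interval also held a longer gap, 82.5 kb, than either domain, and 3 endogenous peaks, whereas the domains on both sides held 0. The domains are shorter, at 130 and 280 kb, so the highest fold, longest gap and endogenous count are not compared at equal length.

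Across the 95 peaks of the domains, width and tags rose together, with Spearman's rho of 0.97, and fold and tags less closely, with 0.79, close to the 0.80 of the whole biotin list. Both are descriptions within 1 library, in which a wider peak gathers more tags.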
